A study of Mus musculus with 4 samples.

Results

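The genes described here are 33 genes of surface epithelium, namely keratins, junction components, membrane proteases with their inhibitors, and regulators of epithelial identity. They were chosen by gene symbol for their known epithelial roles, from a table of 25239 genes, and all 33 were in the table. RNA had been sequenced from hindlimb bud cells of FVB mouse embryos at embryonic day 11.5, with wild-type endogenous loci. Both groups carried the same reporter, inserted at H11. It places the red fluorescent protein mCherry under an hsp68 promoter and the ZRS, a human limb enhancer of Shh, carrying 404G>A. Anterior cells sorted as mCherry-positive were compared with central cells sorted as mCherry-negative, with 2 libraries of each. Every anterior library was mCherry-positive and every central one mCherry-negative, so position and reporter state cannot be told apart. Anterior and central cells below stand for these sorted groups. The labels name no epithelial marker in the sort. They do not say how many embryos went into a library or whether replicates came from separate embryos, so p-values measure only the spread between these libraries.

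At this stage the limb bud is a core of mesenchyme wrapped in a thin sheet of surface ectoderm, whose thickened distal rim, the apical ectodermal ridge, secretes growth factors that sustain outgrowth. Epithelial cells are held together by adherens junctions, desmosomes and tight junctions, carry a keratin cytoskeleton, and sit on a basement membrane that separates them from the mesenchyme. The transcription factor p63 (Trp63) is required for the surface ectoderm to stratify and for the ridge to form, and grainyhead-like factors and the ESRP splicing regulators maintain the epithelial state. Mesenchymal cells generally lack E-cadherin (Cdh1), and the repressors of the Snai and Zeb families hold it and other epithelial genes down by binding E-box sequences.

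Library totals lay between 30080925 and 33257383 counts. CPM below are counts scaled to 1000000 per library with TMM factors, on which 3 counts, used as the floor, equal 0.0899 to 0.102. The limb mesenchyme factor Prrx1 measured 717 and 676 CPM in anterior libraries against 681 and 641 in central, and the hindlimb factor Tbx4 measured 225 and 238 against 240 and 267. Neither was called, while of the 14 genes of the mesenchymal list described below 7 were higher and 5 lower in anterior cells. The replicates of each group differed by more than sampling noise (chi-square per degree of freedom on halved counts 15.1 for anterior and 8.46 for central). This figure sums over genes, so abundant genes such as Rn45s, described next, can weigh heavily in it. It does not show that the replicates came from separate embryos, and they were treated as separate samples. The ribosomal RNA precursor Rn45s stood apart in anterior replicate 2, at 12333 CPM against 4082 to 6724 in the central libraries and 3217 in anterior replicate 1.

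Most of the 33 genes were sparse in the anterior mCherry-positive cells and present at low levels in the central mCherry-negative cells. Cdh3 was well measured in both groups. Of the 33, 31 passed the filter on low counts and 24 of these were lower in anterior cells, 1 was higher and 6 did not pass the test (edgeR quasi-likelihood test, adjusted p under 0.05 over all 14610 genes tested). Across all tested genes 12.3% were called lower and 10.7% higher, and these shares also apply beside the counts by role below. The median log2 fold change of the 31 was -2.86, beside -0.01 for all tested genes. Because the filter asks for counts in only 2 libraries, a gene could pass on its central counts alone, and these summaries describe the tested members only. In 30 of the 33 both anterior libraries lay below both central ones, which held for 32.6% of all tested genes. These 30 include Krt19 and Marveld3, which were too sparse to test. Cdh3 was the exception that lay above, and Itgb4 and Rab25 overlapped between groups. In a bulk library, fewer epithelial cells and less epithelial RNA per cell cannot be told apart.

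**Figure D1:**
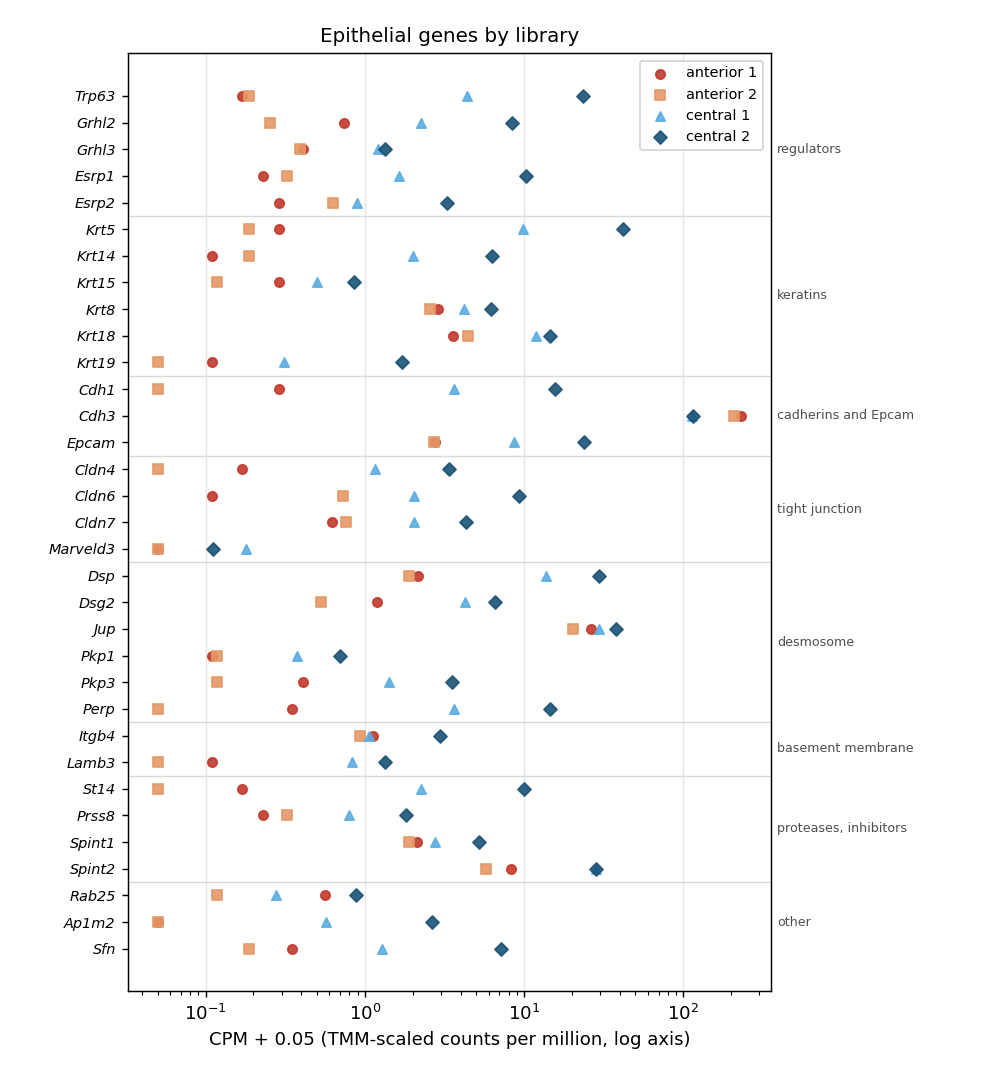
Level of each of the 33 epithelial genes in each library, as CPM plus 0.05 on a log axis, grouped by role; a point at the left edge is a count of 0. Both anterior libraries lie left of both central libraries for 30 genes, Cdh3 lies to the right, and central replicate 2 is the highest library for most of the others.

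Without central replicate 2 the number called lower was 16, and Cldn6, Cldn7, Grhl3, Jup, Pkp1, Pkp3, Prss8 and Sfn did not pass. With limma-voom it was 13, and Trp63, Krt5, Cdh1, Perp, Esrp1, Grhl2, Grhl3, Cldn6, Pkp1, Prss8 and Sfn did not pass.

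Of the 33 genes, 17 had an entry in the RefSeq promoter table of build GRCm38.p6, giving 19 promoters. Cdh1, Trp63, Grhl2, Esrp1, Perp and St14 were among the genes without an entry, so the shares below leave them out. The E-box CACCTG, the letters that Snai and Zeb repressors bind, was searched on both strands in the 250 bases before each start. It occurred in 13 of the 19 promoters (68.4%), and in 17.2% of all 32851 promoters of the same length. The AP-2 letters GCCNNNGGC occurred in 4 of 19 (21.1%, against 13.7% of all), the grainyhead letters AACCGGTT in 0 of 19 (0.116% of all) and the TATA letters TATAAA in 0 of 19 (12.4% of all). A match describes letters and not binding. Shown 5′ to 3′ on the strand of the gene are the windows with the most matches (Ap1m2 with 4, Spint2 with 3), those of Epcam with 2 and Krt5 with 1, and that of Krt14, the partner of Krt5, with none. The Krt14 window lies inside the RefSeq span of that gene, chr11:100203162-100207510, so the bases before its outermost start were not searched. Both Lamb3 windows and 1 Cldn7 window also lie inside the span of the gene. Capitals mark the E-box in either orientation.
Ap1m2, chr9:21312334-21312583, minus strand: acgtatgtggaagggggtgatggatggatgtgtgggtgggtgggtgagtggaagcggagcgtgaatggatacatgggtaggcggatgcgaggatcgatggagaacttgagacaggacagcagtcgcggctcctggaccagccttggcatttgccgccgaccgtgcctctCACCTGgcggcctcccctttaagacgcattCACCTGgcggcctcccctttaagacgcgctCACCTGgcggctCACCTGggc
Spint2, chr7:29281978-29282227, minus strand: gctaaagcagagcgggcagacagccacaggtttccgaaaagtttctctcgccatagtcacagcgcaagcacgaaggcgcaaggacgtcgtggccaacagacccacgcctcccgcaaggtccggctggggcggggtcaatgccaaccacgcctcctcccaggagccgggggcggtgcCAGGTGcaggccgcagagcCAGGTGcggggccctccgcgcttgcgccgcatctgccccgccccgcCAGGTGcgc
Epcam, chr17:87635729-87635978, plus strand: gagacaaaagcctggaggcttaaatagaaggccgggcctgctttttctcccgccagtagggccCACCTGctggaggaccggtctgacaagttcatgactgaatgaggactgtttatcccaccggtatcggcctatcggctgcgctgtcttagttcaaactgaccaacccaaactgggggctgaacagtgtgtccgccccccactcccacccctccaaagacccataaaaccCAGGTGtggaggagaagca
Krt5, chr15:101712906-101713155, minus strand: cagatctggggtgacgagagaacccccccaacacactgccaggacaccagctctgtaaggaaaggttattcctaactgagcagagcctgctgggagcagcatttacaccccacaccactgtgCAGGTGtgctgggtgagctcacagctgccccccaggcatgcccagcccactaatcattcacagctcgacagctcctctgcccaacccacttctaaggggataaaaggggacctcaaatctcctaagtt
Krt14, chr11:100206031-100206280, minus strand: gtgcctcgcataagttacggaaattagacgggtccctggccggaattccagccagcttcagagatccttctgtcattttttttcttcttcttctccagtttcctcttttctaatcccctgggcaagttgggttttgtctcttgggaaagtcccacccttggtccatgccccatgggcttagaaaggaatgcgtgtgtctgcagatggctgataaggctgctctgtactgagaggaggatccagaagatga
The genes shown were not alike in expression. Ap1m2, with 4 matches, had no counts in anterior cells, and Spint2, with 3, had 273 and 167. Krt14, with no match in a window inside the gene, fell by more than Spint2, as given below. Whether matches and expression go together was not tested.

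Among the regulators, 4 of 5 were lower in anterior cells and Esrp2 did not pass. Trp63, the gene of p63, was counted 4 and 4 times in the anterior libraries against 134 and 753 in the central. Anterior values were close to the floor while the central libraries differed 5.35-fold from each other. The mean was 0.128 ± 0.012 CPM against 13.8 ± 13.4 (SD, n = 2 each), and the gene was lower in anterior cells by edgeR's test (log2 fold change -6.71 ± 0.93 SE, adjusted p = 0.00127). Esrp1, a splicing factor that selects epithelial exons, had 6 and 8 counts against 49 and 330 (log2 fold change -4.69 ± 0.89 SE, adjusted p = 0.00607). Its paralogue Esrp2 pointed the same way, with 8 and 17 counts against 26 and 104, and missed the threshold (log2 fold change -2.32 ± 0.73 SE, adjusted p = 0.0516). It passed in 6 of the 12 alternatives that could test it, so its call depends on the setting. The grainyhead-like factor Grhl2, which sustains Cdh1 and claudin expression in epithelia, had 23 and 6 counts against 68 and 270 (log2 fold change -3.52 ± 0.72 SE, adjusted p = 0.0087). Grhl3, a relative that acts in the skin barrier, had 12 and 10 counts against 36 and 42, and differed little between the central libraries. Its adjusted p of 0.0418 was above the threshold in 7 of 12 alternatives.

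Of the 6 keratins 5 were tested, and 3 were lower and 2 not called. Krt5 and Krt14, the type II and type I partners of basal epidermal filaments, had the largest fold changes among them. Krt5 was counted 8 and 4 times in anterior libraries against 301 and 1346 in central, at 0.188 ± 0.073 against 25.7 ± 22.5 CPM (SD, n = 2 each; log2 fold change -7.04 ± 0.83 SE, adjusted p = 0.00054). Krt14 had 2 and 4 counts against 60 and 202 (log2 fold change -5.36 ± 0.76 SE, adjusted p = 0.00144). Per kilobase of exon, Krt5 was at 11.7 ± 10.2 CPM in central cells and Krt14 at 2.33 ± 1.73 (SD, n = 2), and Krt5 was the higher of the pair in both central libraries. Krt8 and Krt18, the filament partners of simple epithelia, kept measurable counts in anterior cells. Krt18 measured 3.54 and 4.40 CPM against 11.9 and 14.6 and was lower (log2 fold change -1.74 ± 0.21 SE, adjusted p = 0.000609), whereas Krt8 measured 2.82 and 2.52 against 4.12 and 6.15 and did not pass (log2 fold change -0.94 ± 0.30 SE, adjusted p = 0.0517). Krt8 passed in 4 of 13 alternatives. Both genes have processed pseudogenes, and how reads shared with copies were counted is not given in the sources used here. Krt15, another basal keratin, had at most 26 counts in any library and did not pass (adjusted p = 0.111). Krt19 had 2 and 0 counts against 8 and 54, a ratio of 30.8 from summed halved counts (95% counting interval 5.13 to 1254), and was filtered out before testing.

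Among the 33 genes, the classical cadherins E-cadherin and P-cadherin changed in opposite directions. Cdh1, the E-cadherin gene, was counted 8 and 0 times in anterior libraries against 110 and 504 in central (log2 fold change -6.20 ± 0.95 SE, adjusted p = 0.00222). Across the alternatives its log2 fold change ran from -11.2 to -4.79. Cdh3, the P-cadherin gene, measured 232 and 207 CPM in anterior cells against 113 and 114 in central, with no overlap and a ratio of 1.02 between the central libraries. It was higher in anterior cells by a log2 fold change of 0.95 ± 0.07 SE (1.93-fold, edgeR adjusted p = 4.55e-05), and it passed in each of the 13 alternatives. The genes are neighbours, Cdh3 at chr8:106510852-106556911 and Cdh1 at chr8:106603350-106670247 in RefSeq on GRCm38.p6, with 46.4 kb between them. Per kilobase of exon, Cdh3 stood at 50.04 ± 4.05 CPM in anterior and 25.88 ± 0.27 in central cells (SD, n = 2 each), the highest level of the 33 in both. The summed CPM of the 33 was 287 and 251 in anterior libraries against 259 and 440 in central. Of this sum Cdh3 made up 80.9% and 82.3% in anterior libraries against 43.5% and 25.97% in central. Without it, that sum was 54.9 and 44.6 CPM in anterior cells and 146 and 326 in central cells. Epcam, an epithelial surface glycoprotein, had 90 and 78 counts against 266 and 768, so that unlike Cdh1 it remained well above the floor in anterior cells. It measured 2.68 ± 0.03 against 16.2 ± 10.7 CPM (SD, n = 2; log2 fold change -2.59 ± 0.42 SE, adjusted p = 0.00298).

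The tight junction genes that could be tested were all lower in anterior cells (3 of 3 tested, of 4 listed). Cldn4, a claudin of barrier-forming epithelia, had 4 and 0 counts against 34 and 108 (log2 fold change -5.05 ± 0.96 SE, adjusted p = 0.00614). Cldn6, a claudin of embryonic epithelia, had 2 and 20 counts against 61 and 300 (log2 fold change -3.96 ± 0.92 SE, adjusted p = 0.0153). Its anterior libraries differed 11.4-fold, more than those of any other member with counts in both. Cldn7 had 19 and 21 counts against 61 and 139 (log2 fold change -2.29 ± 0.49 SE, adjusted p = 0.0108). Neither Cldn6 nor Cldn7 passed without central replicate 2 (adjusted p = 0.0661 and 0.0802). Marveld3, a tight junction membrane protein gene, had no counts in anterior cells and only 4 and 2 in central cells, and could not be compared at this depth.

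All 6 desmosome genes were lower in anterior cells, by very different amounts. Perp, a p63 target that stabilises desmosomes, had 10 and 0 counts against 111 and 470 (log2 fold change -5.81 ± 0.92 SE, adjusted p = 0.00263). Dsp, the gene of desmoplakin, which ties keratin filaments to the junction, had 70 and 54 counts against 424 and 958 (log2 fold change -3.46 ± 0.36 SE, adjusted p = 0.000246). The desmosomal cadherin Dsg2 had 38 and 14 counts against 129 and 210 (log2 fold change -2.703 ± 0.45 SE, adjusted p = 0.00316). Dsp and Dsg2 therefore were better measured in anterior cells than Perp, which had no count in replicate 2. The plakophilin Pkp3 had 12 and 2 counts against 42 and 113 (adjusted p = 0.0116). Pkp1, its relative in stratified epithelium, had 2 and 2 counts against 10 and 21, a ratio of 7.94 from summed halved counts with a 95% counting interval of 1.87 to 71.2, and its adjusted p of 0.0491 passed the threshold in only 2 of 12 alternatives. Jup encodes plakoglobin, which serves both desmosomes and the adherens junctions of many cell types. It had the smallest called fall of the 33, at 26.2 and 20.4 CPM against 29.6 and 37.8 (log2 fold change -0.53 ± 0.15 SE, adjusted p = 0.0388), and did not pass without central replicate 2 (adjusted p = 0.142) or without anterior replicate 2 (adjusted p = 0.188).

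At the basement membrane, Itgb4, the integrin subunit of hemidesmosomes, overlapped between groups with 36 and 26 counts against 31 and 95 and did not pass (adjusted p = 0.237). Lamb3, the beta chain of the laminin that anchors epidermis, had 2 and 0 counts against 24 and 42, a ratio of 32.8 from summed halved counts with a 95% counting interval of 5.48 to 1332 (edgeR adjusted p = 0.00725). The pair thus differed in outcome, though both central libraries held few reads for either gene.

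Of the membrane serine proteases and their inhibitors, 3 of 4 were lower in anterior cells and Spint1 did not pass. St14, the gene of matriptase, was counted 4 and 0 times in anterior libraries against 68 and 321 in central (log2 fold change -6.49 ± 1.005 SE, adjusted p = 0.0023). Prss8, the gene of prostasin, which acts with matriptase, had 6 and 8 counts against 23 and 57 (log2 fold change -2.46 ± 0.67 SE, adjusted p = 0.0307). The Kunitz-type inhibitors of these proteases were less sparse. Spint2 measured 8.19 and 5.69 CPM against 28.2 and 28.2 (log2 fold change -2.02 ± 0.18 SE, adjusted p = 9.36e-05), the smallest adjusted p among the members called lower. Spint1 measured 2.07 and 1.84 CPM against 2.695 and 5.16 and did not pass (log2 fold change -1.005 ± 0.38 SE, adjusted p = 0.0908).

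Of the remaining genes, Ap1m2, an adaptor subunit that sorts cargo to the basolateral membrane of epithelial cells, was at 0 in both anterior libraries against 16 and 84 counts in central. It was at least 16.2-fold lower in anterior cells against a floor of 3 counts per library (edgeR adjusted p = 0.00803). Sfn, the epithelial 14-3-3 sigma gene, had 10 and 4 counts against 38 and 230 (log2 fold change -4.21 ± 0.86 SE, adjusted p = 0.00895). Rab25, a recycling GTPase of epithelia, had 17 and 2 counts against 7 and 27, with the groups overlapping (adjusted p = 0.576). Its log2 fold change of -0.84 turned to 0.37 without central replicate 2.

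**Figure D2:**
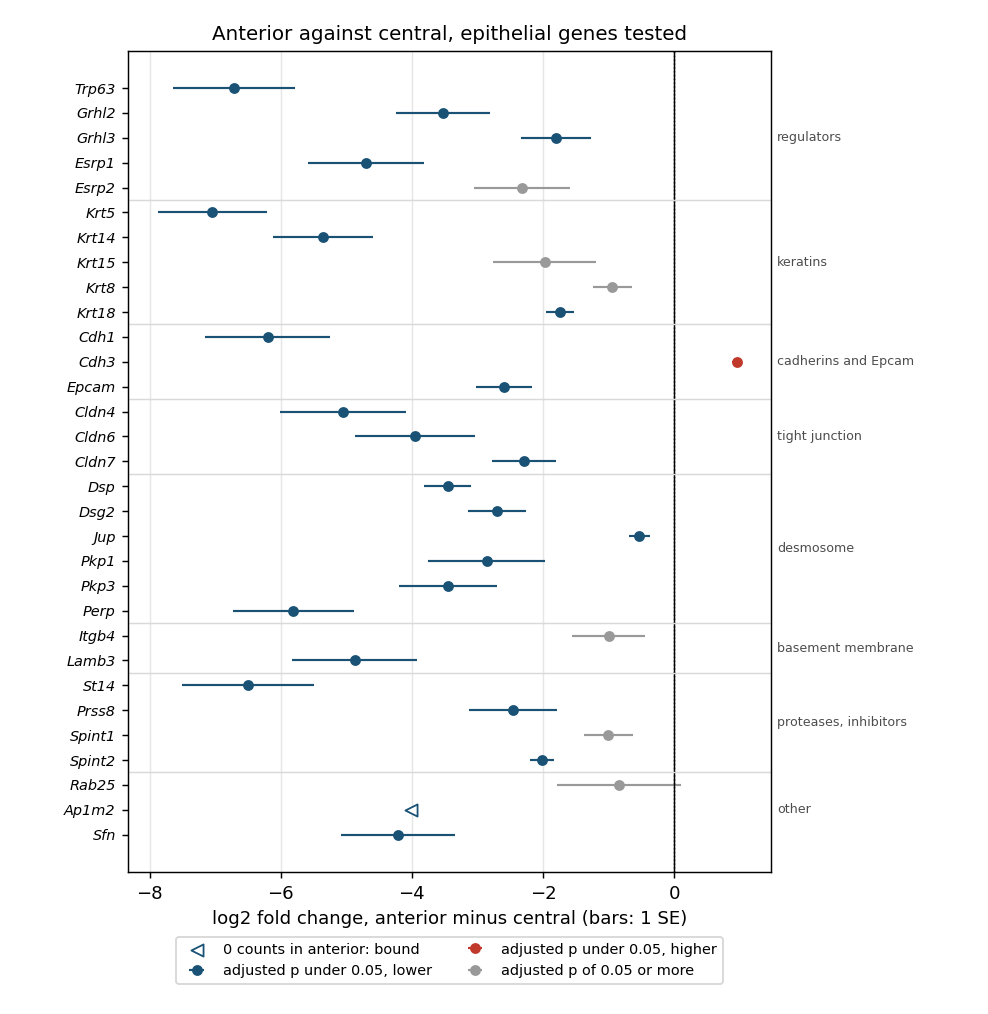
Log2 fold change of anterior over central cells for the 31 tested genes, with bars of 1 SE from edgeR, grouped by role. The open triangle sets Ap1m2 at the floor of 3 counts in anterior cells. Of the 24 genes called lower, values run from -7.04 for Krt5 to -0.53 for Jup, and Cdh3 at 0.95 is alone on the right.

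Among the 23 called lower with a fitted fold, 20 were lower by 4-fold or more, and Grhl3, Krt18 and Jup by less. Ordered by level per kilobase of exon in anterior cells, Cdh3 was followed by Jup at 3.62 ± 0.64 CPM, Krt18 at 2.76 ± 0.42, Spint2 at 1.52 ± 0.39, Krt8 at 1.36 ± 0.11 and Epcam at 1.22 ± 0.01 (SD, n = 2 each). The 1 SD ranges of Jup and Krt18 overlapped, as did those of Spint2 and Krt8. In central cells the order after Cdh3 was Krt5, then Krt18 at 9.21 ± 1.33, Epcam at 7.37 ± 4.86, Spint2 at 6.18 ± 0.003 and Jup at 5.24 ± 0.90, and the spread of Krt5 and Epcam covered their neighbours.

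The central libraries were then compared with each other, since they were the libraries in which most of these genes were measured. This sets 1 library against 1, so the ratios carry a counting interval only and no test. Central replicate 2 exceeded central replicate 1 by 2-fold or more in 20 of the 31 tested members, against 2.82% of all tested genes, and none of the 31 was lower by 2-fold (3.17% of all). The median ratio was 2.75 for the members and 0.998 for all tested genes. The 95% counting interval, from halved counts, lay above 1 for 25 members and included 1 for the other 6.

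The ratios formed a range and not one value. Among tested members Esrp1 had the highest at 6.41 (95% counting interval 4.11 to 9.99), followed by Sfn at 5.76, Trp63 at 5.35, Ap1m2 at 4.99, Cldn6 at 4.68, St14 at 4.49, Cdh1 at 4.36, Krt5 at 4.25 (3.55 to 5.09) and Perp at 4.03. The intervals of these 9 genes overlapped one another. Lower ratios with narrow intervals were those of Epcam at 2.75 (2.25 to 3.37), Dsp at 2.15 (1.82 to 2.54), Jup at 1.28 (1.13 to 1.44) and Krt18 at 1.23 (1.007 to 1.496). The intervals of Spint2 at 1.001 (0.875 to 1.14) and Cdh3 at 1.02 (0.9502 to 1.08) included 1. Just inside the 2-fold mark lay Dsp and Cldn7 at 2.17, and just outside it Pkp1 at 1.998 and Spint1 at 1.91.

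**Figure D3:**
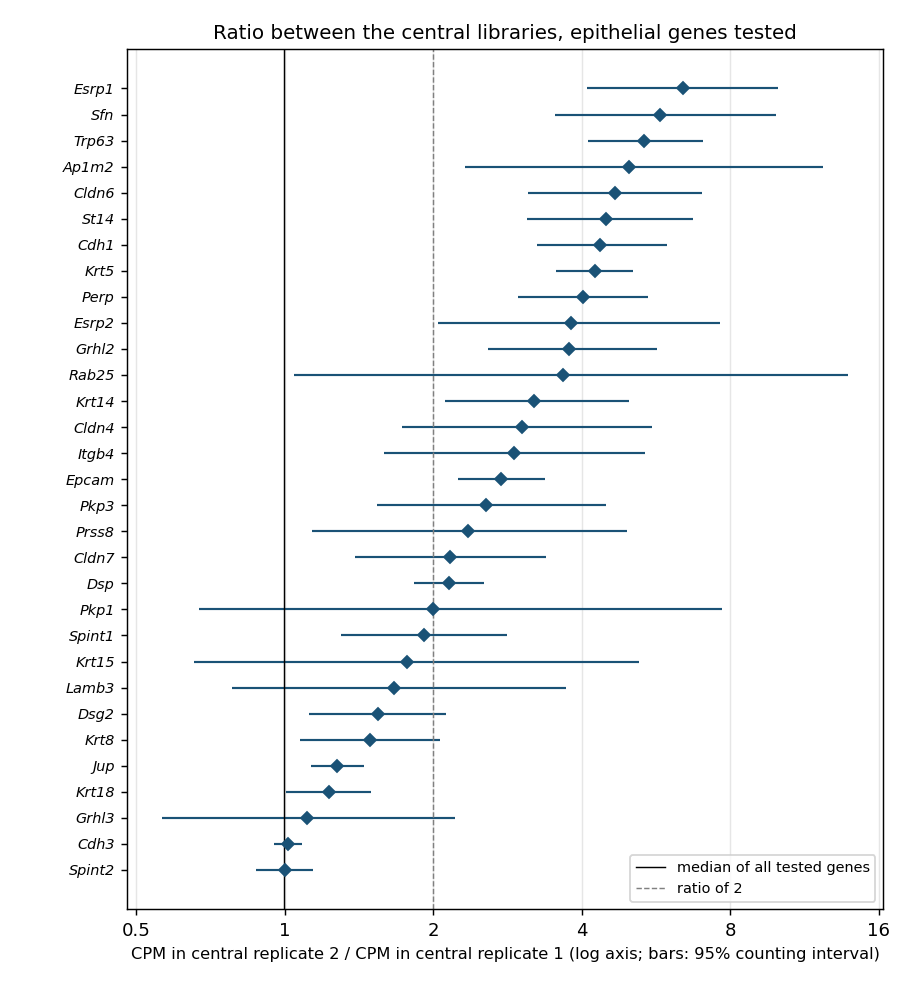
Ratio of CPM in central replicate 2 to central replicate 1 for the 31 tested genes, on a log axis, with 95% counting intervals from halved counts; the solid line is the median of all tested genes and the dashed line a ratio of 2. From Esrp1 at 6.41 the ratios descend to 1.001 for Spint2, and 20 genes lie at 2 or above.

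Set beside the anterior comparison, the 20 members with a ratio of 2 or more had log2 fold changes between anterior and central of -0.84 or below, and 17 were called lower. The 11 with a smaller ratio ranged from -4.87 for Lamb3 to 0.95 for Cdh3, with 7 called lower, 1 higher and 3 not called. Both measures share the central libraries, so one does not support the other. In the anterior libraries the median ratio of replicate 2 to replicate 1 was 0.849 over the 30 members with counts. It was 2 or more in 3 tested members (2.72% of all tested genes) and 0.5 or less in 11 (4.49%). The counting interval included 1 for 25 of the 30, lay above it for Cldn6 and below it for 4.

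Other epithelial genes, from lists of related function, gave a mixed picture. Of 87 listed genes 61 were tested, and 35 were lower in anterior cells, 3 higher and 23 not called, with a median log2 fold change of -1.81. For each of these lists the shares over all tested genes were 12.3% lower and 10.7% higher. The apical ridge and ectodermal ligand list was lower in 11 of 12 tested genes. Its median was -4.33 with genes without anterior counts set at the floor of 3 counts per library. Wnt6 and Wnt7b, Wnt ligands of limb ectoderm, had 0 and 3 counts against 158 and 639, and 0 and 2 against 92 and 322. En1, the ventral ectoderm factor, had no anterior counts and was at least 29.1-fold lower against the floor of 3 counts per library. Within this list the central ratio was 2 or more for 9 of 12 genes (2.82% of all tested genes), with a median of 3.43. The ridge factor Sp8, at 3.84 and 3.27 CPM against 2.66 and 13.7, was the 1 tested gene not called (adjusted p = 0.189).

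Further junction genes did not follow as uniformly. Of 17 tested, 5 were lower, 1 higher and 11 not called, with a median log2 fold change of -0.76. F11r, a junctional adhesion molecule gene, fell from 4.29 and 11.1 CPM in central cells to 1.44 and 0.818 in anterior cells (adjusted p = 0.00442), and Marveld2, the tricellulin gene, and Cldn1 had log2 fold changes of -2.33 and -1.82 (adjusted p = 0.0122 and 0.00229). Of the other keratins 4 of 13 were tested and Krt7, Krt17 and Krt20 were lower, each with at most 8 counts in an anterior library and none called without central replicate 2 (adjusted p of 0.05 to 0.145). Krt10, the remaining one, was not called.

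Among basement membrane genes, 8 of 12 tested were lower and 4 not called (median log2 fold change -0.98). Lama3, a laminin alpha chain gene of epithelia, had 4 and 0 counts against 31 and 47 (log2 fold change -4.20 ± 0.90 SE, adjusted p = 0.0111). The hemidesmosome collagen gene Col17a1 had 14 and 14 counts against 77 and 247 (log2 fold change -3.49 ± 0.57 SE, adjusted p = 0.00308). Itga6, the integrin partner of Itgb4, measured 23.4 and 23.0 against 26.3 and 39.0 CPM and, like Itgb4, was not called (adjusted p = 0.0667).

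Further regulators split, with 4 lower, 2 higher and 4 not called of 10 tested. Macc1 and the receptor gene Erbb3 had log2 fold changes of -4.65 and -3.89, although Erbb3 is also used by neural crest and was higher in central replicate 1. The AP-2 factors, which act in both ectoderm and limb mesenchyme, went the other way. Tfap2c measured 51.7 and 65.8 CPM in anterior cells against 7.11 and 10.7 in central, and Tfap2a 60.8 and 48.4 against 18.1 and 16.3 (log2 fold changes 2.72 ± 0.19 and 1.67 ± 0.13 SE, adjusted p = 2.51e-05 and 4.4e-05). Of the surface and trafficking genes 4 of 6 tested were lower. Prom2, an epithelial prominin, had no anterior counts, and its mean central CPM was 18.6 times the floor of 3 counts per library. The 95% counting interval of its central over anterior ratio began at 15.1. The myosin gene Myh14 had a log2 fold change of -3.31. Cdcp1 had 2 and 0 counts against 22 and 83, a ratio of 52.6 from summed halved counts (95% counting interval 9.04 to 2116, edgeR adjusted p = 0.00683).

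**Figure D4:**
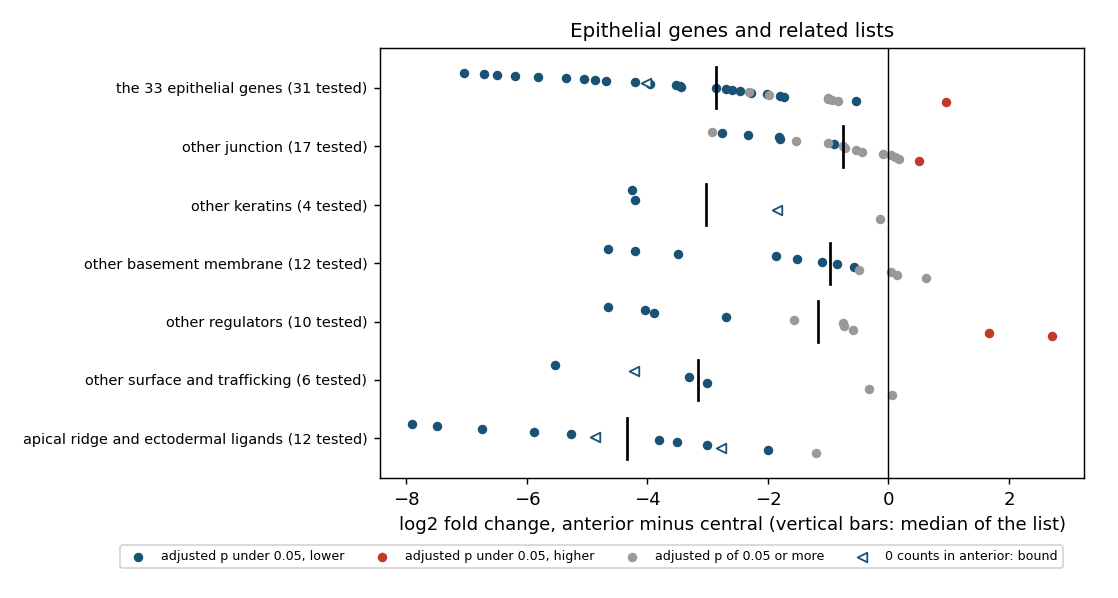
Log2 fold change of anterior over central cells for the 31 tested epithelial genes and for 6 related lists, with 1 point per tested gene and a vertical bar at each list's median; open triangles are bounds for genes without anterior counts. Medians run from -4.33 for the apical ridge and ectodermal ligands to -0.76 for the other junction genes, and the points on the right in red include Cdh3, Tfap2a and Tfap2c.

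Genes of other cell types also differed between the sorted populations and between libraries, and their part in the values above was not tested. Over all tested genes 12.3% were called lower and 10.7% higher. All 9 tested erythroid genes were called higher in anterior cells, with summed levels of 3302 and 8412 CPM against 8.86 and 12.3. Hbb-y measured 1942 and 4866 against 1.49 and 3.65 CPM and Hba-x 937 and 2457 against 1.30 and 2.04, while Hba-a1 and Hba-a2 were at 0 in every library. With the erythroid list removed before scaling, 25 members were called lower. White cell genes summed to 19.7 and 14.4 against 7.53 and 7.07 CPM, with 3 of 6 called higher, among them Csf1r and Cx3cr1. Endothelial genes summed to 14.4 and 22.0 against 43.0 and 52.7 CPM, with 6 of 10 called lower, Cdh5 among them, while Egfl7 was not called. Myogenic genes summed to 4.17 and 2.35 against 143 and 142 CPM, with 7 of 7 called lower, including Met and Lbx1. Pax7 and Myog were at 0 in both anterior libraries. Neural crest genes summed to 14.1 and 10.5 against 14.2 and 14.4 CPM, with 1 of 5 tested, Sox10, called lower and Mitf not called. Sox10 and Foxd3 were at 0 in both anterior libraries.

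The central libraries were set side by side for these lists too, with no test of the difference from the epithelial genes. The median ratio of central replicate 2 to central replicate 1 was 0.993 for myogenic, 0.887 for mesenchymal, 0.917 for white cell, 1.14 for neural crest, 1.31 for endothelial and 1.57 for erythroid genes, beside 2.75 for the tested members and 1.39 for the other epithelial lists. Single genes departed from their list, as with Myog at 0.366 and Pax7 at 0.272. Of the mesenchymal list, 7 of 14 genes were higher in anterior cells and 5 lower. The repressors Snai1, Snai2 and Zeb1 were higher (log2 fold changes 0.55, 1.38 and 0.25, adjusted p = 0.0039, 0.000143 and 0.031), and Zeb2 was lower at 4.14 and 3.20 against 18.8 and 18.5 CPM (log2 fold change -2.34 ± 0.19 SE, adjusted p = 5.08e-05). Prrx1 was not called (adjusted p = 0.473), and the matrix gene Fn1 was lower in anterior cells (log2 fold change -0.59, adjusted p = 0.000877).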

How the data were processed

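RNA was measured in 4 libraries, 2 of anterior mCherry-positive and 2 of central mCherry-negative hindlimb cells, and grouped by their titles. The authors deposited whole-number read counts per gene symbol, not normalized. Per the submitters' processing notes, STAR 2.7.9a, HTSeq, DESeq2 (given as 3.16) and mm10 were used. The annotation and strand setting are not given in the sources used here, and overlapping genes may share reads. Of counts from 1 to 10, 72.8% to 75.6% were even, the pattern left when both mates are counted, so counting intervals (exact binomial, 95%) used halved counts. Intervals and floors cover counting error only.

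The counts were tested with edgeR 4.0.16 in R 4.3.3 (filterByExpr, TMM, quasi-likelihood test, Benjamini-Hochberg adjustment over 14610 genes, threshold 0.05). SE is the absolute log2 fold change divided by the square root of F. Lengths are unions of exons in GENCODE M21. Alternatives were DESeq2 1.42.0 size factors and Wald test, library size alone, limma-voom (limma 3.58.1), other count filters, a replicate block, halved counts, removal of erythroid genes and leaving out each library. The script was tested on simulated data. All members are accounted for. From each related list the text names up to 3 called genes per direction with the largest change and any called against most of its list, and from each cell type list the 2 most abundant. Genes outside this rule (Sp8, Krt10, Itga6, Snai1, Snai2, Zeb1, Zeb2, Tbx4, Rn45s and those given at 0) were named after their values were seen. Members and lists were chosen with earlier results of these data known. Some genes that this rule names are not reported here.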

Additional observations from a re-analysis of the deposited data

How the results depend on the processing

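The count of 24 members lower in anterior cells was 13 with limma-voom, and between 17 and 27 under the other scalings, filters, tests and gene sets. Leaving out each library in turn gave 16 to 26, where the lone library of a group is assumed to vary like the other group. Over all genes, leaving out each library gave 1941 to 3510 calls, with 1178 to 1722 lower and 763 to 1788 higher. The cause was not tested. With replicate number as a block, 24 members were called lower and 1 higher. Pkp1 and Grhl3 were lost, Esrp2 and Krt8 gained, and 3586 genes were called in all. The labels do not say that same-numbered libraries share embryos, and the replicate differences of the groups correlated across genes at 0.064 (Pearson) and 0.034 (Spearman). Cdh3 was called higher in every fit. The median of the members stayed between -3.50 and -2.27. Rab25, not called, ranged from -2.89 to 0.37 as each library was left out. Among the members tested, 17 kept direction and side of the threshold in each fit on all libraries that tested them. The filter at a mean count of 50 left only 20 members to test. Members with a central ratio of 2 or more numbered 13 with a mean count of at least 50, where fewer genes were tested. Genes under 10 counts in 1 or both anterior libraries have loosely bounded folds. Across the alternatives the log2 fold change of Perp ran from -11.1 to -4.49 and that of St14 from -10.5 to -5.04.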
